A study of Mus musculus with 48 samples.

Results

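The genes described here are the 4 pyruvate dehydrogenase kinases (Pdk1, Pdk2, Pdk3 and Pdk4), the 2 catalytic pyruvate dehydrogenase phosphatases (Pdp1 and Pdp2) and Pdha1, which encodes the enzyme subunit that both act on. They are 7 of the 47480 gene symbols in the count tables, were taken by name, and were all found in both tables. They were picked with knowledge of their levels in stretched and non-stretched cells, so those differences are given below as a description. Calls on them are given beside the share of all genes called and are not read as support. C2C12, an established line of mouse skeletal myoblasts, was cultured as undifferentiated myoblasts or as differentiated cells, which had been kept for days under conditions that promote myotube formation. In each stage, cells on flexible collagen-coated plates were stretched cyclically and in all directions of the membrane, with collection after 1, 3 and 6 h, and cells on the same kind of plate that were not stretched were collected at the same times. RNA was sequenced from 48 libraries in 12 groups of 4, and all groups are of this 1 cell line with no gene altered and no drug. Per the study's methods, libraries came from independent experiments. Their titles hold codes, B27 and B31 for myoblasts and B25 and B28 for differentiated cells. Each code is read here as an experiment. In the stretched differentiated group at 1 h, 1 library (replicate 4) has a further code, B17. The titles give the codes without a meaning, and the methods name more experiments for differentiated cells than most of those groups have codes.

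The pyruvate dehydrogenase complex sits in the mitochondrial matrix and turns pyruvate from glycolysis into acetyl-CoA for the tricarboxylic acid cycle. The kinases switch the complex off by phosphorylating serines of the Pdha1 protein, and the phosphatases remove these phosphates and switch it on again. In skeletal muscle this cycle sets how much of the energy supply comes from carbohydrate, and Pdk4 in particular is known as a gene that is induced during fasting and when fatty acids are burned. RNA levels do not show the phosphorylation of the complex, which was not measured in these data.

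The libraries held between 48447318 and 77080730 counts. Of the 7 muscle differentiation markers in the tables, 7 were higher in differentiated cells, such as Myh3, an embryonic myosin heavy chain, at 4511 CPM (counts per 1000000 counts of a library, scaled with TMM factors) against 1.53 CPM, and 5 of 6 markers of proliferating myoblasts were lower, with Pax7 as the exception. Of the other cell types checked, Adipoq (fat), Pecam1 (endothelium) and Ptprc (blood) had between 0 and 8 counts in any non-stretched library. The neuronal tubulin Tubb3 was at 214 CPM in non-stretched myoblasts and 50.5 CPM in differentiated cells, the epithelial cadherin Cdh1 was at 1.99 and 13.5 CPM, and the cartilage collagen Col2a1 was at 0.241 and 0.162 CPM. Each of these 3 genes was called between the stages, with Cdh1 higher and the others lower in differentiated cells.

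The promoters of Pdp2, Pdk2 and Pdk4 are shown because these genes differed most with stretching in a stage. Each line gives bases 250 to 51 before the transcription start in RefSeq on GRCm38.p6, read 5′ to 3′ on the gene's own strand, at chr8:104591222-104591421 (+) for Pdp2, chr11:95041422-95041621 (-) for Pdk2 and chr6:5496329-5496528 (-) for Pdk4. Capitals mark the E-box CACGTG and the CCAAT box, which reads ATTGG where it lies on the other strand.
Pdp2: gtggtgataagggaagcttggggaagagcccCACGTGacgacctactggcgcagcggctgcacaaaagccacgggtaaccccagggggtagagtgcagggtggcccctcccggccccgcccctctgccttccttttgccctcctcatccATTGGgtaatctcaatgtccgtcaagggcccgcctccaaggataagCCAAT
Pdk2: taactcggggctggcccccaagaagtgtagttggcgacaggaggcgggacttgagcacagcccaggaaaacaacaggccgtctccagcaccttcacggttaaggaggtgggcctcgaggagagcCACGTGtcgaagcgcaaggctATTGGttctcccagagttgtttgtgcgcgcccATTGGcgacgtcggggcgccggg
Pdk4: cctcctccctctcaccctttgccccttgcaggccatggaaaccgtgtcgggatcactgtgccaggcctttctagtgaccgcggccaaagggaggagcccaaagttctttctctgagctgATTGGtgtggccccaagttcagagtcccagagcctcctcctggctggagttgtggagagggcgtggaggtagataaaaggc
The E-box occurred in the Pdp2 window (219 to 214 bases before the start) and in the Pdk2 window shown (126 to 121 bases before it). A second RefSeq start of Pdk2 has another window, chr11:95040926-95041125 (-), with neither motif. It was found in 4.338% of 32851 promoter windows of this length. The CCAAT box occurred in 28.43% of them, and in all 3 windows shown, at 2 places in Pdp2, 2 in Pdk2 and 1 in Pdk4. The window of Pdk3, a gene that differed little with stretching, also had it (120 to 116 bases before the start). The GC box GGGCGG, found in 24.64% of all windows, occurred in a window of Pdp2, of Pdk1 and of Pdk3. Of the 7 genes, 6 had a promoter in the RefSeq table, and Pdp1 had none there. Both strands were searched for 7 short motifs, including the AP-1 motif TGANTCA, the FoxO motif GTAAACA and the nuclear receptor motif AGGTCA, and none of these last 3 occurred in a window shown. A match describes letters in this window only and is not evidence of a bound factor.

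The phosphatase Pdp2 differed most with stretching, and in opposite directions at the early and late times. Pdp2 (chr8:104591451-104599026, plus strand, mm10) encodes a catalytic subunit of the phosphatase that is known for its response to insulin. In myoblasts at 1 h, the non-stretched libraries (replicates 7, 8, 9 and 10) had 8.46, 8.64, 9.77 and 9.53 CPM of Pdp2. The stretched libraries had 6.04, 6.00, 5.77 and 5.98 CPM, all lower than every non-stretched one. The log2 fold change was -0.62 (SE 0.0635), or 1.53-fold lower. The summed level of the 7 muscle differentiation markers was 9.77 to 11.4 CPM in these stretched and 10.9 to 18.9 CPM in the non-stretched libraries, where the lowest edgeR adjusted p of a marker was 0.0501 (Myog, log2 fold change -1.25), and the part of this in the Pdp2 level was not tested. In bulk RNA, fewer cells that express a gene and less of its RNA per cell cannot be told apart.

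At 3 h in myoblasts, non-stretched libraries had 10.3, 9.52, 9.20 and 9.49 CPM of Pdp2 and stretched ones 7.98, 7.53, 9.45 and 9.64 CPM. These groups overlapped, and the 2 experiments differed, with a log2 difference of -0.35 in B27 and 0.03 in B31. At 6 h the order was turned round. Pdp2 was at 10.4, 10.5, 10.7 and 11.2 CPM without stretching and at 15.5, 15.96, 16.6 and 15.6 CPM with stretching, so every stretched library lay above every non-stretched one. The log2 fold change was 0.59 (SE 0.0440), or 1.505-fold higher, with 0.58 in B27 and 0.56 in B31. The summed level of the markers of other cell types, nearly all of it Tubb3, was also higher at 6 h, 260.9 to 305 CPM against 189 to 196 CPM, while Adipoq, Pecam1 and Ptprc stayed near 0, and the part of this in the Pdp2 level was not tested.

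In differentiated cells Pdp2 had the same low at 1 h and was higher from 3 h on. At 1 h it was at 8.27, 8.53, 8.63 and 8.59 CPM in non-stretched libraries and at 6.48, 5.63, 5.66 and 7.02 CPM in stretched ones (replicates 4, 7, 8 and 9), with no overlap and a log2 fold change of -0.46 (SE 0.0842). At 3 h the values were 8.47, 8.57, 9.07 and 9.88 CPM without and 10.1, 10.1, 12.3 and 12.05 CPM with stretching, a log2 fold change of 0.31 (SE 0.0819). At 6 h they were 8.86, 8.91, 9.64 and 9.16 CPM without and 11.7, 12.6, 13.3 and 13.8 CPM with stretching, a log2 fold change of 0.49 (SE 0.0623). The stretched libraries were thus all lower at 1 h and all higher at 3 h and 6 h, and within both B25 and B28 the difference had that sign at each time. At 1 h, however, B28 had only 1 stretched library, and B17 had 0 non-stretched ones to compare with. The other cell type markers were at 87.3 to 94.8 CPM with and 62.1 to 72.0 CPM without stretching at 3 h. At 6 h they were at 92.7 to 95.6 and 54.2 to 64.0 CPM. In non-stretched differentiated cells most of this sum was Tubb3, and most of the rest was Cdh1. At an edgeR adjusted p under 0.05, 1 of the 2 tested at 6 h was higher and 1 lower, where 22.3% of all genes passed. The part of these markers was not tested.

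Pdp1 (chr4:11958184-11966452, minus strand), the phosphatase catalytic subunit that calcium is known to stimulate and the more abundant one here, went its own way. In myoblasts at 6 h it was at 30.9, 28.6, 31.6 and 29.7 CPM without stretching and at 20.2, 22.5, 20.8 and 22.1 CPM with stretching. All stretched libraries were lower, with a log2 fold change of -0.48 (SE 0.0421), at the time at which Pdp2 was higher. At 1 h the mean was 31.3 CPM without and 33.7 CPM with stretching, and at 3 h it was 29.3 and 27.9 CPM, with overlap at both times. In differentiated cells Pdp1 was lower in every stretched library at 3 h (40.0 to 46.1 CPM against 47.0 to 55.0 CPM, log2 fold change -0.21), while at 1 h and 6 h the groups overlapped (log2 fold changes 0.02 and -0.14).

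**Figure D1:**
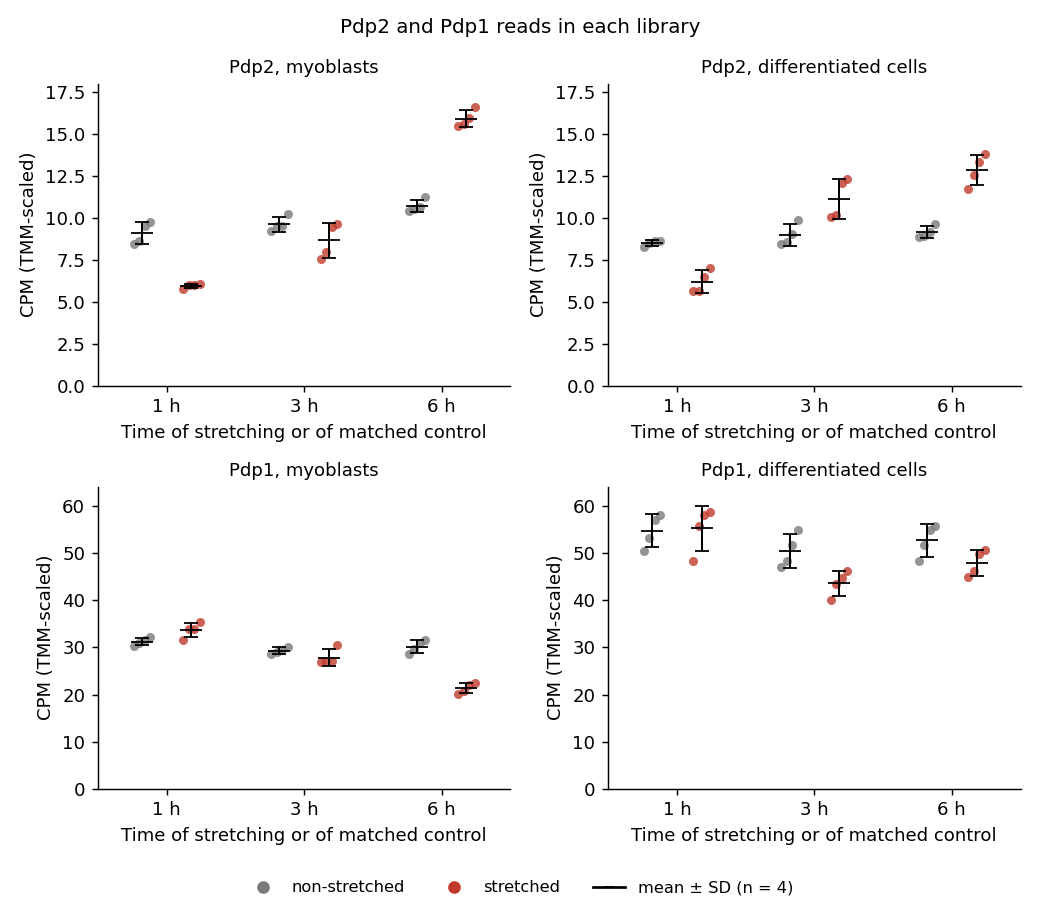
Levels of Pdp2 (top) and Pdp1 (bottom) in CPM in myoblasts (left) and differentiated cells (right) at 1 h, 3 h and 6 h. Each point is a library (grey, non-stretched; red, stretched) and black bars are the mean ± SD of 4; in myoblasts Pdp2 is at 5.95 CPM with 1 h and 15.9 CPM with 6 h of stretching, while Pdp1 at 6 h is at 21.4 CPM against 30.2 CPM.

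The makeup of the phosphatase RNA therefore differed between groups. Of all Pdp1 and Pdp2 counts of a library, Pdp2 took 22.5% ± 1.09 (SD, n = 4) in non-stretched and 15.0% ± 0.704 in stretched myoblasts at 1 h. At 6 h it took 26.2% ± 1.13 and 42.7% ± 1.49, and the stretched libraries, at 41.3% to 44.4%, stood apart from all others of the stage. In differentiated cells the share was 13.5% ± 0.919 and 10.1% ± 1.58 at 1 h, 15.2% ± 1.67 and 20.4% ± 2.18 at 3 h, and 14.8% ± 1.28 and 21.2% ± 2.07 at 6 h. This share is taken within a library and does not depend on how libraries are scaled. It compares counts and not molecules, since the Pdp2 exons are longer (5.692 kb against 4.507 kb).

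**Figure D2:**
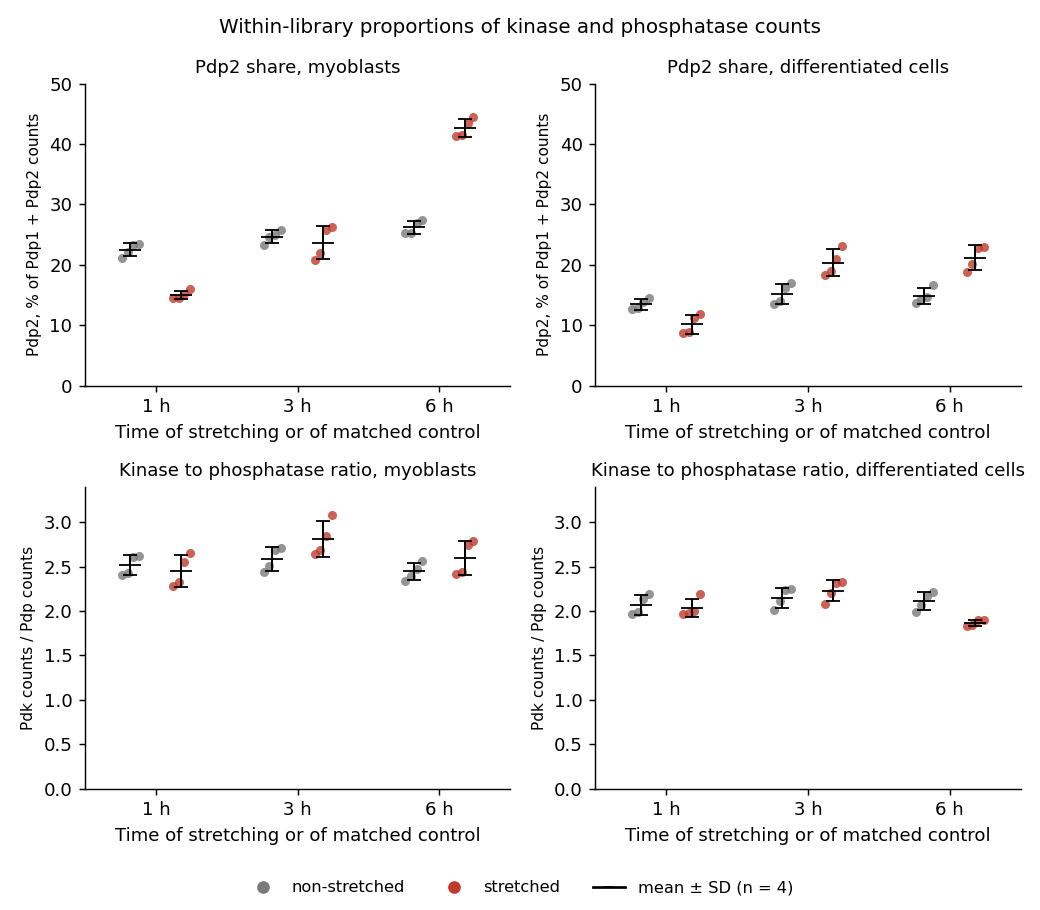
Top, Pdp2 counts as a percentage of Pdp1 plus Pdp2 counts; bottom, counts of the 4 kinases divided by counts of the 2 phosphatases, per library by stage, time and stretching (points; black bars, mean ± SD of 4). The Pdp2 share of stretched myoblasts at 6 h, 42.7% on average, lies above all other groups, whereas the kinase to phosphatase ratio stays between 1.84 and 3.08 in all libraries.

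Among the kinases, Pdk2 differed most in myoblasts. Pdk2 (chr11:95026258-95041354, minus strand), which overlaps the antisense gene Gm11513, is a widely expressed kinase of the complex. In myoblasts it was scarce, with between 106 and 244 counts in a library. At 3 h its level was 3.44, 3.46, 3.62 and 3.55 CPM without stretching and 2.87, 2.62, 2.22 and 2.37 CPM with stretching. At 6 h it was 3.08, 2.86, 2.701 and 2.66 CPM without and 1.86, 1.81, 1.91 and 1.89 CPM with stretching. The stretched libraries were lower at both times without overlap, with log2 fold changes of -0.49 (SE 0.0940) and -0.58 (SE 0.0897). At 1 h the groups overlapped (2.82 to 4.04 CPM against 2.62 to 2.89 CPM). The summed level of the 7 muscle differentiation markers in myoblasts was 10.9 to 17.1 CPM without and 9.97 to 12.7 CPM with stretching at 3 h, with Myog, the myogenic regulator myogenin, called lower (log2 fold change -0.82, adjusted p = 0.0167 by edgeR) and no call among the others, of which Ckm was too low to test. At 6 h the sum was 8.52 to 9.91 and 8.40 to 8.68 CPM. At an edgeR adjusted p under 0.05, 1 of the 6 tested was lower at 6 h. Of the 6 proliferation markers, 2 were higher and 3 lower there, where 27.2% of all genes passed. In both marker lists 0 also reached the fold limit. The part of these cells in the Pdk2 differences, and in those of Pdp1 and Pdp2 at 6 h, was not tested.

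In differentiated cells Pdk2 was also lower with stretching at the later times. At 3 h it was at 36.7, 37.6, 36.3 and 36.4 CPM without and 31.03, 32.3, 32.1 and 30.5 CPM with stretching (log2 fold change -0.22, SE 0.0311). At 6 h it was at 38.2, 38.9, 37.1 and 39.3 CPM without and 30.7, 30.9, 28.1 and 29.0 CPM with stretching (log2 fold change -0.37, SE 0.0398). All stretched libraries were lower at both times. At 1 h, 3 of the stretched libraries lay at 36.6 to 38.8 CPM, near the non-stretched range of 37.4 to 38.3 CPM, and replicate 4 lay at 25.4 CPM. Within experiments B25 and B28 the log2 differences at 1 h were -0.01 and -0.01, the latter from 1 stretched library. Replicate 4, the library of experiment B17, also had the highest summed level of the proliferation markers in its group, 591 CPM against 326 to 372 CPM in the others, and the part of such cells in its Pdk2 level was not tested.

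Pdk4 (chr6:5483351-5496309, minus strand), the kinase linked to fasting and fatty acid use, was lower in stretched differentiated cells at the first and last time. At 6 h it was at 29.2, 27.1, 26.7 and 25.3 CPM without and 20.01, 19.6, 19.9 and 20.9 CPM with stretching, without overlap, and the log2 fold change was -0.43 (SE 0.0465), with -0.50 in B25 and -0.35 in B28. At 1 h the ranges were 28.8 to 30.8 CPM and 23.6 to 27.1 CPM, again without overlap (log2 fold change -0.22). At 3 h they overlapped, with means of 27.4 and 27.7 CPM. Myoblasts had no such difference at 1 h or 6 h (log2 fold changes -0.05 and 0.04). At 3 h Pdk4 was higher on average, 48.6 CPM against 42.1 CPM, with a log2 fold change of 0.20 and overlapping groups.

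Pdk1 (chr2:71873224-71903858, plus strand), a kinase known as a target of the hypoxia factor Hif1a, was lower in every stretched myoblast library at 1 h (14.8 to 18.6 CPM against 19.1 to 19.7 CPM) and at 3 h (16.1 to 18.5 CPM against 18.6 to 21.7 CPM), with log2 fold changes of -0.18 and -0.23. At 6 h in myoblasts, and at each time in differentiated cells, its groups overlapped and the log2 fold changes lay between -0.05 and 0.04. Pdk3 (chrX:93764607-93832201, minus strand) had log2 fold changes between -0.09 and 0.03 in the 6 comparisons, and only at 6 h in myoblasts were all its stretched libraries below the non-stretched ones (31.9 to 34.5 CPM against 34.6 to 37.2 CPM). The substrate Pdha1 (chrX:160122209-160138413, minus strand, overlapping Map3k15 on the plus strand) stayed within log2 fold changes of -0.03 and 0.06, at group means of 245 to 263 CPM in myoblasts and 357 to 386 CPM in differentiated cells. All its stretched libraries were higher in myoblasts at 3 h (261 to 265 CPM against 248 to 259 CPM). The same held in differentiated cells at 6 h (380 to 398 CPM against 363 to 378 CPM).

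**Figure D3:**
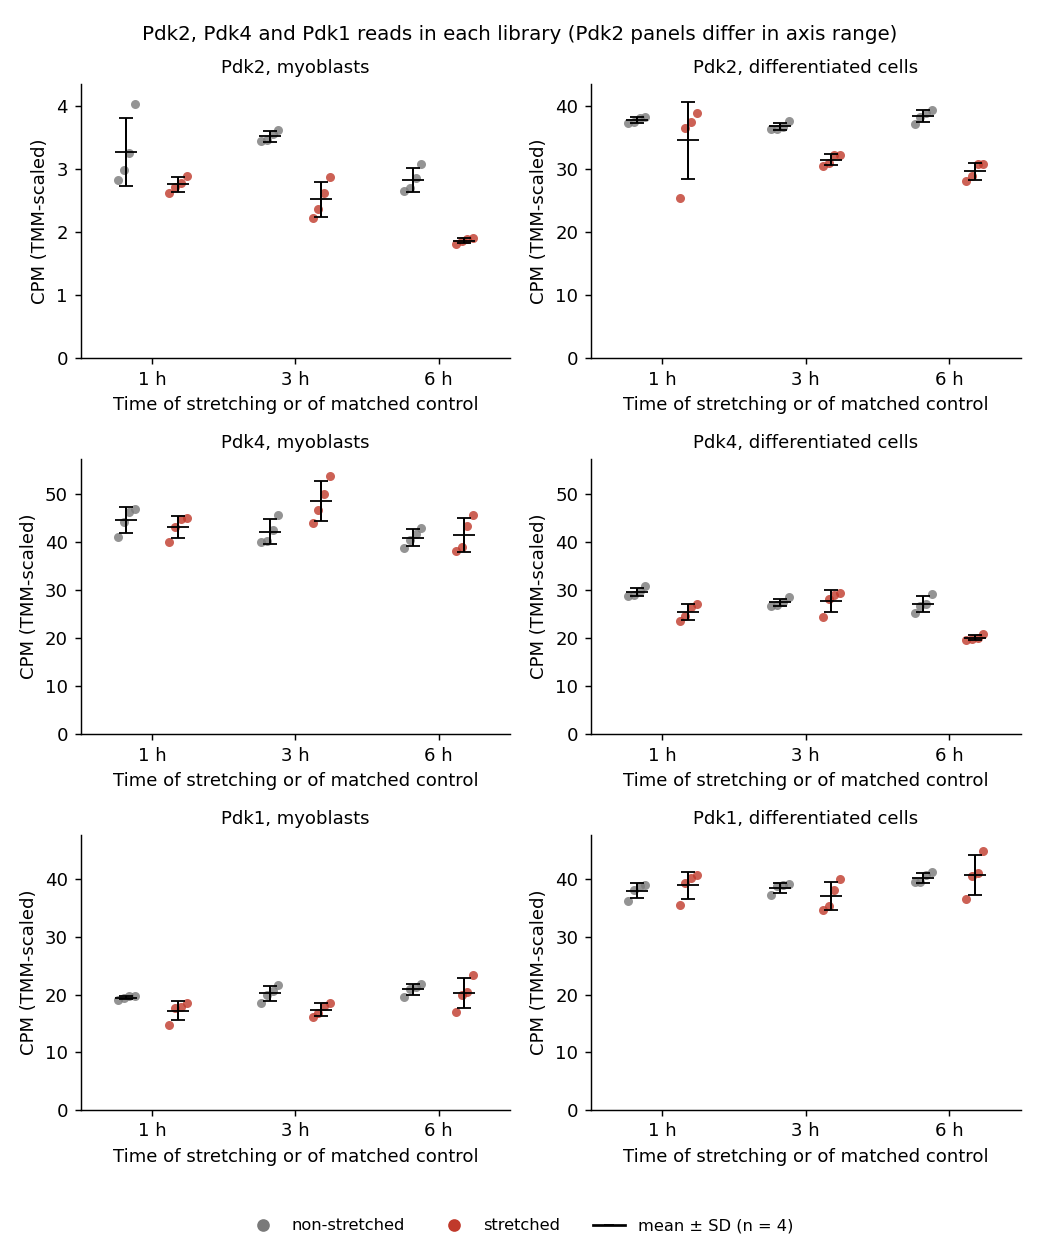
Levels of Pdk2, Pdk4 and Pdk1 in CPM in myoblasts (left) and differentiated cells (right), with points for libraries (grey, non-stretched; red, stretched) and black bars for mean ± SD of 4. The Pdk2 panels have different axes; Pdk2 at 6 h lies at 1.87 CPM against 2.82 CPM in myoblasts and at 29.7 CPM against 38.4 CPM in differentiated cells, and the low point at 1 h is replicate 4.

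Calls were made over the whole table with edgeR's quasi-likelihood test and needed both an adjusted p (Benjamini-Hochberg) below 0.05 and a log2 difference, up or down, no smaller than 0.58. All 7 genes passed the filter on low counts. In myoblasts, 1 of the 7 was called lower at 1 h (Pdp2) where 1.25% of all genes were called, 0.997% as lower. At 3 h 0 were called where 1.71% were, and at 6 h 1 was called higher (Pdp2) where 2.17% were called, 1.35% as higher. In differentiated cells 0 were called at each time, where 0.27%, 1.63% and 2.04% of all genes were called at 1 h, 3 h and 6 h. DESeq2 also called 0 in these 4 comparisons without a call, and at an unadjusted p under 0.05 they held 4, 2, 3 and 5 of the 7 genes, against 41.5%, 8.92%, 34.9% and 35.8% of all genes. The number of the 7 whose stretched and non-stretched libraries did not overlap was 2, 3 and 4 in myoblasts, against 13.3%, 30.8% and 28.7% of all genes, and 2, 3 and 4 in differentiated cells, against 6.37%, 25.9% and 26.4%. By adjusted p alone, 1, 3 and 3 of the 7 passed in myoblasts, against 5.92%, 31.9% and 27.2% of all genes, and 1, 3 and 3 in differentiated cells, against 0.663%, 22.2% and 22.3%. As the genes were chosen on these comparisons, nothing is read from the counts. The call of Pdp2 at 1 h in myoblasts was lost without non-stretched replicate 9 (0 calls). That at 6 h fell just under the fold limit without stretched replicate 9 (log2 fold change 0.57) or non-stretched replicate 7 (0.58). Pdk2 at 6 h in myoblasts fell just short of that limit (log2 fold change -0.5778, edgeR adjusted p = 0.00104). It was called in 4 of 15 alternatives.

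**Figure D4:**
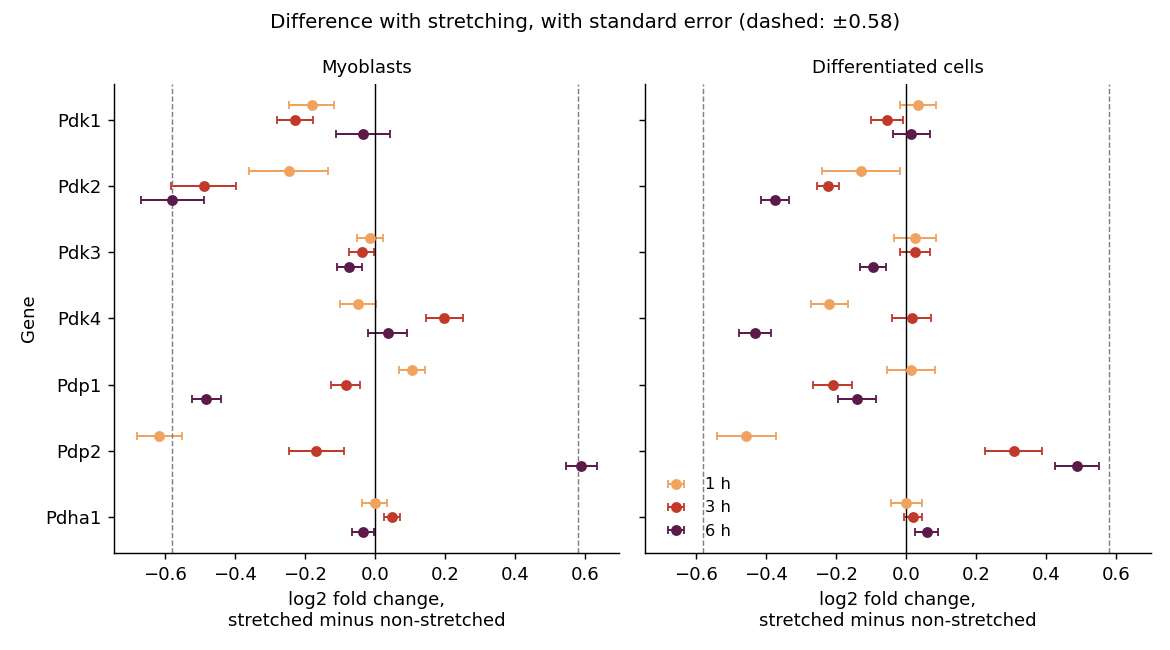
Log2 fold change, stretched minus non-stretched, of the 7 genes at 1 h, 3 h and 6 h (points, with bars of 1 standard error) in myoblasts and differentiated cells; dashed lines mark 0.58 in either direction. Pdp2 is negative at 1 h and positive at 6 h in both stages, the lowest value at 6 h is that of Pdk2 in myoblasts (-0.58) and of Pdk4 in differentiated cells (-0.43), and Pdk3 and Pdha1 lie close to 0.

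The counts of the 4 kinases divided by those of both phosphatases differed little between groups. The ratio was 2.52 ± 0.114 (SD, n = 4) in non-stretched and 2.45 ± 0.179 in stretched myoblasts at 1 h, 2.59 ± 0.135 and 2.81 ± 0.201 at 3 h, and 2.45 ± 0.0989 and 2.60 ± 0.196 at 6 h, with overlap at each time. In differentiated cells it was 2.07 ± 0.113 and 2.03 ± 0.103 at 1 h and 2.15 ± 0.113 and 2.23 ± 0.118 at 3 h. At 6 h it was 2.11 ± 0.101 without and 1.87 ± 0.0343 with stretching, and these libraries did not overlap (1.99 to 2.21 against 1.84 to 1.90). The ratio is a sum of counts from genes of unequal length and has no test.

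Between the stages, Pdk2 differed most. This comparison asked which kinase and phosphatase genes myoblasts and differentiated cells express without stretching, in 12 libraries of each, and it was not used to choose the genes. Pdk2 was higher in differentiated cells, at 36.3, 37.5 and 39.3 CPM (lowest, median and highest library) against 2.66, 3.17 and 4.04 CPM in myoblasts, an 11.5-fold difference (log2 fold change 3.53, SE 0.0456, edgeR adjusted p = 9.68e-30). Pdk1 rose from a median of 19.8 CPM (18.6 to 21.9) to 39.0 CPM (36.2 to 41.2), at a log2 fold change of 0.92 (SE 0.0219, edgeR adjusted p = 6.92e-24). Pdp1 rose from 30.3 CPM (28.5 to 32.1) to 52.6 CPM (47.0 to 58.1), with a log2 fold change of 0.77 (SE 0.0286, edgeR adjusted p = 1.88e-19). Each of these 3 genes had no overlap between the stages.

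Pdk4 was lower in differentiated cells, at a median of 28.03 CPM (25.3 to 30.8) against 42.1 CPM (38.7 to 47.0), with a log2 fold change of -0.63 (SE 0.0270, edgeR adjusted p = 4.33e-18). Pdk3 was at 24.9 CPM (23.6 to 27.5) against 34.6 CPM (33.0 to 37.2), a log2 fold change of -0.51, and Pdha1 at 363 CPM (344 to 378) against 253 CPM (247 to 275), a log2 fold change of 0.48. These 2 genes did not overlap between the stages and passed the adjusted p (6.57e-17 and 1.25e-18 by edgeR), but missed the fold limit. Pdp2 was at 8.74 CPM (8.27 to 9.88) and 9.65 CPM (8.46 to 11.2) in differentiated cells and myoblasts, with overlap and a log2 fold change of -0.17 (SE 0.0336, edgeR adjusted p = 3.95e-05). In all, 4 of 7 genes were called, 3 higher and 1 lower, beside 51.8% of the 16269 genes tested (27% higher, 24.8% lower). By adjusted p alone 7 of 7 passed, beside 89.9% of all genes, and 6 of 7 did not overlap between the stages, beside 64.5% of all genes, so these shares were near those of all genes. No experiment held both stages, so stage and experiment cannot be told apart.

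Per kilobase of exon, the order of the levels was therefore unlike in the 2 stages. Length was taken over the exons of all annotated transcripts of a gene, also those not coding for protein, and the order depends on it. For Pdk1 it was 7.779 kb from 8 transcripts, of which 1 is protein-coding. In non-stretched myoblasts Pdha1 came first with 68.3 CPM per kb, followed by Pdk3 with 13.6, Pdk4 with 12.1, Pdp1 with 6.71, Pdk1 with 2.60, Pdp2 with 1.72 and Pdk2 with 1.01. The library ranges of Pdk3 (12.9 to 14.5) and Pdk4 (11.03 to 13.4) overlapped, whereas the other neighbours in this order did not. In differentiated cells Pdha1 had 97.3 CPM per kb, Pdk2 11.9, Pdp1 11.7, Pdk3 9.76, Pdk4 7.98, Pdk1 5.01 and Pdp2 1.56. There Pdk2 (11.5 to 12.4) and Pdp1 (10.4 to 12.9) overlapped, as did Pdp1 with Pdk3 (9.20 to 10.7). Pdk2 thus went from the last place among the kinases to the first. At most 1.81% of the 31-base stretches in any of these genes occurred in another gene.

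**Figure D5:**
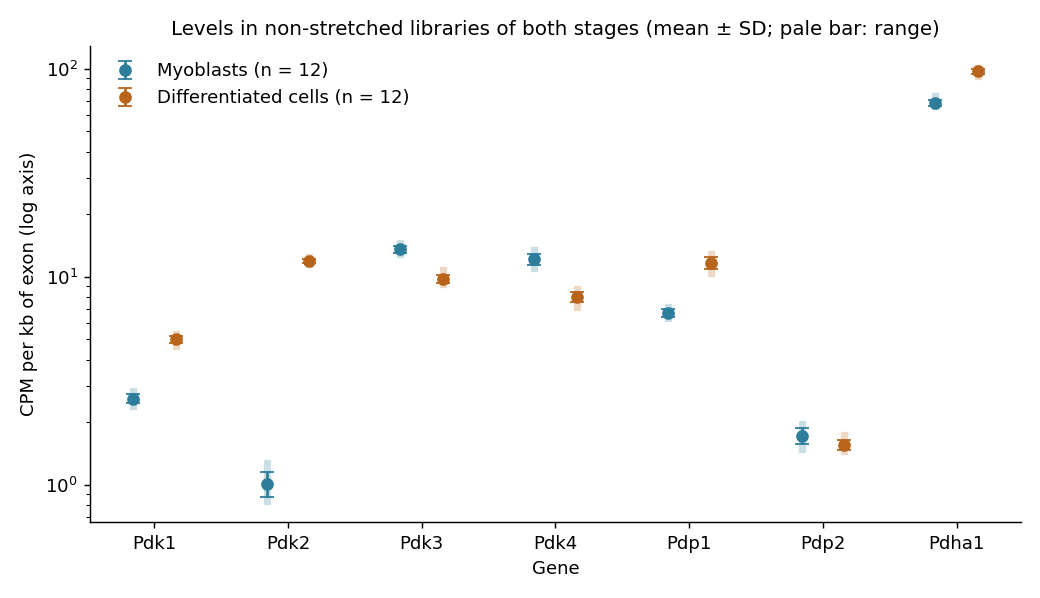
Levels in CPM per kilobase of exon, on a log axis, of the 7 genes in the 12 non-stretched libraries of each stage (points, mean; bars, SD; pale bars, lowest to highest library). Pdk2 lies at 1.01 in myoblasts and 11.9 in differentiated cells, Pdha1 is highest in both, and Pdp2 is alike at 1.72 and 1.56.

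Time in culture without stretching changed these genes little. None of the 7 was called by edgeR in myoblasts at 3 h against 1 h (0.143% of all genes called) or 6 h against 1 h (0.259%), nor in differentiated cells at 3 h (0%, or 0 of 16059 genes) or 6 h (0.187%). DESeq2 called 0 of the 7 in each, and 2, 3, 2 and 3 of them had an unadjusted p under 0.05, as did 20%, 17.4%, 8.81% and 20.6% of all genes. In differentiated cells at 3 h this was 1414 genes, and DESeq2 called 0. By adjusted p alone, which 4.47% of all genes passed, 2 of the 7 differed in myoblasts over that time. Pdp2 was higher in non-stretched myoblasts at 6 h than at 1 h (log2 fold change 0.24, edgeR adjusted p = 0.0158, every library higher) and Pdk4 was lower (log2 fold change -0.12, edgeR adjusted p = 0.0382). Between experiments, again 0 were called by edgeR or DESeq2 (0.201% of all genes in myoblasts and 1.26% in differentiated cells), with 2 and 3 at an unadjusted p under 0.05, beside 19% and 32% of all genes. By adjusted p alone 1 of the 7 differed in each stage, beside 4.41% and 17.7% of all genes. Pdk4 was lower in B31 than in B27 (log2 fold change -0.11, edgeR adjusted p = 0.0161) and Pdp1 lower in B28 than in B25 (log2 fold change -0.12, edgeR adjusted p = 0.0337).

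Other genes of the pathway were examined as 64 genes in 5 lists. The lists held 9 further subunits and regulators of this complex or of a related one, and 10 genes of pyruvate supply and disposal. They also held 11 transcription regulators known to act on Pdk genes, 18 genes of fatty acid oxidation and PPAR targets, and 16 genes of the tricarboxylic acid cycle. In myoblasts 0 of 60 tested were called at 1 h, 1 of 60 at 3 h and 2 of 61 at 6 h. Of all genes, 1.25%, 1.71% and 2.17% were called there. In differentiated cells 0, 2 and 1 of 63 were called at 1 h, 3 h and 6 h, beside 0.27%, 1.63% and 2.04% of all genes. These counts were near the shares of all genes, so nothing is read from them. At 1 h, where edgeR made no call, DESeq2 called 0 in myoblasts and 1 in differentiated cells, and 8 and 6 genes had an unadjusted p under 0.05, beside 19% and 8.92% of all genes. The DESeq2 call was Myc, a growth-related transcription factor, which is named here after its values were seen. It was at 26.9, 28.1, 35.1 and 37.4 CPM without and 140.5, 59.3, 64.00 and 65.9 CPM with stretching (replicates 4, 7, 8 and 9), all higher, and missed the edgeR call (log2 fold change 1.37, SE 0.264, edgeR adjusted p = 0.0536). Without replicate 4 the log2 fold change was 0.98 (edgeR adjusted p = 0.00330). The median log2 fold change over those tested lay between -0.04 and 0.02 in the 6 comparisons, while that of all genes was between -0.01 and 0.00.

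In the list of subunits and regulators, Ppm1k was the one called with stretching, and it belongs to a related complex. It encodes the phosphatase that activates the related branched-chain ketoacid dehydrogenase complex. At 3 h in myoblasts it was at 3.22, 4.08, 3.76 and 3.53 CPM without and 2.16, 2.91, 2.13 and 2.65 CPM with stretching (log2 fold change -0.58, SE 0.118, edgeR adjusted p = 0.00229), and at 3 h in differentiated cells at 6.99, 6.69, 6.92 and 7.04 CPM without and 4.37, 4.25, 4.91 and 4.18 CPM with stretching (log2 fold change -0.64, SE 0.0677, edgeR adjusted p = 0.000242). All stretched libraries were lower in both stages. The call in myoblasts was lost when non-stretched replicate 8, non-stretched replicate 9, stretched replicate 7 or stretched replicate 9 was left out, with log2 fold changes between -0.57 and -0.52. The subunit genes Pdhb, Dlat, Dld and Pdhx, which build the rest of the complex, were called at no time, nor was any of the 10 genes of pyruvate supply or the 16 of the tricarboxylic acid cycle.

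Of the regulators, Ppara, a fatty acid receptor that is known to induce Pdk4, was called higher in myoblasts at 6 h, but with 7 to 10 counts in a library without and 14 to 25 with stretching (log2 fold change 1.16, edgeR adjusted p = 0.00767). Of the fatty acid genes, Fabp3, a fatty acid carrier, was called higher there too, with 47 to 66 and 64 to 129 counts and overlapping groups (log2 fold change 0.84, edgeR adjusted p = 0.0190). Ucp3, a mitochondrial carrier of muscle, was called lower in differentiated cells at 3 h, with 17 to 30 against 8 to 18 counts (log2 fold change -0.99, edgeR adjusted p = 0.0204), and at 6 h, with 20 to 26 against 8 to 13 counts (log2 fold change -0.98, edgeR adjusted p = 0.0167). Leaving out 1 library ended the Fabp3 call for 3 libraries (non-stretched replicates 7 and 8, stretched replicate 9, edgeR adjusted p of 0.0505 to 0.0586), the Ucp3 call at 3 h for 3 (non-stretched replicates 9 and 10, stretched replicate 7, 0.0502 to 0.0576) and that at 6 h for 1 (non-stretched replicate 7, 0.0501). DESeq2 gave no adjusted p for Ucp3. In Fabp3, 37.3% of the 31-base stretches also occur in other genes, so that its count depends on how shared reads were divided.

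Between the stages, 26 of the 63 tested genes were called, 16 higher and 10 lower in differentiated cells, beside 51.8% of all genes. The largest rises were in fatty acid genes. Cd36, a fatty acid transporter of the plasma membrane, was at 51.9 CPM in differentiated cells and 0.0992 CPM in myoblasts (log2 fold change 9.01, edgeR adjusted p = 1.85e-29). Its level in myoblasts was near the floor, so the size of this fold change depends on few counts. Fabp3 was at 22.4 and 0.914 CPM (log2 fold change 4.59, edgeR adjusted p = 4.47e-31). Ucp3 was at 0.413 CPM in differentiated cells and had 0 to 2 counts in a myoblast library, so its fitted log2 fold change of 5.12 depends on few counts. The largest falls were in Angptl4, an inhibitor of lipoprotein lipase (12.3 against 41.5 CPM, or -1.78 on the log2 scale, edgeR adjusted p = 4.63e-23), in Me2, the mitochondrial malic enzyme (36.2 against 121.8 CPM, or -1.78 on the log2 scale, edgeR adjusted p = 3.56e-30), and in Suclg2, a subunit of succinyl-CoA ligase (24.9 against 60.3 CPM, or -1.31 on the log2 scale, edgeR adjusted p = 2.49e-26). In Suclg2, 20.6% of the 31-base stretches also occur in other genes, which leaves its count uncertain. In the list of subunits and regulators 3 of 9 were higher and 0 lower, and in pyruvate supply 3 of 10 higher and 4 lower. Among the transcription regulators 4 of 11 were higher and 2 lower. In fatty acid oxidation 6 of 17 tested were higher and 2 lower, and in the tricarboxylic acid cycle 0 of 16 higher and 2 lower.

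The genes most like the 2 members that differed most in each stage were sought by Pearson's r of log2 CPM over the 24 libraries of the stage, leaving out genes that averaged under 100 counts. In myoblasts, Pdp2 was most like Stard4, a sterol transporter (r = 0.951), Aco1, the cytosolic aconitase (r = 0.949), and Nfya, a subunit of a factor that binds CCAAT (r = 0.947), among 11400 genes. Pdk2 was most like Tgfb3, a TGF-beta ligand (r = 0.937), Fbxl20 (r = 0.929) and Arvcf (r = 0.916). In differentiated cells, Pdp2 was most like Zfp553 (r = 0.935), Zbed4 (r = 0.934) and Mex3d (r = 0.933) among 11870 genes, and Pdk4 was most like Cilp (r = 0.866), Lrrc4c (r = 0.859) and Camk1g (r = 0.859). These values describe 24 libraries that share their groups, experiments and depth.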

How the data were processed

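RNA from 48 libraries of C2C12 cells (24 of myoblasts, 24 of differentiated cells, 12 groups of 4) was sequenced. The authors used STAR for alignment to mm10 and Salmon for quantification, and deposited whole-number counts per gene symbol in a table for each stage, without normalization. All 48 columns were used. The labels name the RNA as nuclear, whereas the study's methods describe a stranded mRNA kit. Samples were grouped by their titles. The stretched myoblast library of replicate 9 at 1 h carries a code seen nowhere else in the labels and was taken as B31. Per the study's methods, samples of a group were separate but some came from the same experiment, so p-values measure the spread between libraries that are not all independent.

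Counts were filtered with filterByExpr, scaled with TMM and tested by quasi-likelihood in edgeR 4.0.16 (R 4.3.3, two-sided, Benjamini-Hochberg over all genes tested, adjusted p under 0.05 and log2 fold change of at least 0.58). Stretch comparisons used 8 libraries without covariates, non-stretched times and experiments 12 libraries of a stage with both terms, and stages 24 libraries with time as a term. CPM was set on 1 scale over all 48 libraries, and log2 CPM used a prior count of 1. Gene positions and exon lengths are from GENCODE vM21, promoters from RefSeq. The genes, lists, tests and alternatives (DESeq2 1.42.0, RLE factors, other filters, 1 model per stage, experiment or replicate as a term, adjusted p alone, leaving out each library) were chosen with earlier results of these data known.

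Named were the 7 genes, called pathway genes of each stretch comparison (at most 6), the 3 largest rises and 3 largest falls between stages, and for the 2 genes that differed most in a stage the 3 genes most alike. On simulated data for the comparison of 8 libraries (14779 genes, 200 changed), 100% of genes changed by 0.8 or by 1.5 on the log2 scale were called, with 7 false calls. For the stages (15430 genes) it was 100% with 1 false call. In both, the changed genes averaged at least 100 counts, and both sizes lie above the fold limit. The spread for 8 libraries was that of myoblasts at 1 h. Scarcer genes, such as Ppara and Ucp3, and smaller changes were not simulated. The libraries held 48447318 to 77080730 counts.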

Additional observations from a re-analysis of the deposited data

Results flagged for a closer look

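In groups of 4 libraries, 1 library stood far from the other 3 in 7 of 96 groups checked, where chance gives about 1 in 20. In stretched differentiated cells (1 h), replicate 4 had 25.4 CPM of Pdk2, against 36.6 to 38.8 CPM in the others, and the kinase to phosphatase ratio in the same library was 2.19, against 1.97 to 2.003. The remaining ones were Pdk1 in non-stretched differentiated cells at 3 h (replicate 9, 37.3 CPM), Pdk3 in non-stretched myoblasts at 6 h (replicate 9, 37.2 CPM), Pdp1 in stretched myoblasts at 3 h (replicate 7, 30.4 CPM), Pdha1 in non-stretched myoblasts at 1 h (replicate 9, 275 CPM) and Pdha1 in stretched differentiated cells at 3 h (replicate 8, 375 CPM).

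All 4 stretched libraries lay on 1 side of the mean of their non-stretched group at 1 time and on the opposite side at another time for Pdp2 in myoblasts (log2 fold change 0.59 at 6 h and -0.62 at 1 h), for Pdp2 after differentiation (0.31 at 3 h, 0.49 at 6 h and -0.46 at 1 h) and for Pdp1 in myoblasts (0.11 at 1 h and -0.48 at 6 h). The difference between these times was not tested.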

How the results depend on the processing

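No called value changed direction under an alternative in which it could be computed. The calls of Pdp2 in myoblasts held in 14 of 15 alternatives at 1 h (log2 fold change -0.65 to -0.58) and in 13 of 15 at 6 h (0.57 to 0.61), and the 4 calls between stages held in all 30 each. For Pdp2 the alternatives reuse libraries on which the genes were chosen, so they describe the settings and add no support. By adjusted p alone, 3 of the 7 genes passed in myoblasts at 3 h, 3 at 6 h, and 1, 3 and 3 in differentiated cells at 1 h, 3 h and 6 h. In non-stretched cells 2 passed at 6 h against 1 h in myoblasts, 1 and 1 between experiments and 7 between stages. There 4.47%, 4.41%, 17.7% and 89.9% of all genes passed. Of the pathway genes, 1, 12 and 9 passed in myoblasts, 12 and 8 in differentiated cells at 3 h and 6 h, and 58 between stages, beside 5.92%, 31.9%, 27.2%, 22.2%, 22.3% and 89.9% of all genes. With 1 model for all 24 libraries of a stage, 2 of the 7 were called in myoblasts at 6 h, as Pdk2 passed the fold limit, and 1 pathway gene (Myc) in differentiated cells at 1 h, as also with no filter, DESeq2, experiment as a covariate or the replicate block. With 10 counts in every library, 1, 1 and 0 pathway genes were called in myoblasts at 6 h and differentiated cells at 3 h and 6 h, since scarce genes were dropped. DESeq2 called 1 and 0 in the last 2, where it called 182 and 249 of all genes. For the single model and the other filters the share of all genes is not given, so nothing is read from those counts. Without Pdk4, the log2 difference of the kinase to phosphatase ratio was -0.022 in myoblasts at 3 h (0.12 with it) and -0.12 in differentiated cells at 6 h (-0.17 with it).

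Leaving out 1 library, calls among the 7 ranged from 0 to 1 in myoblasts at 1 h (0 without non-stretched replicate 9) and from 0 to 2 at 6 h (0 without non-stretched replicate 7, 2 without replicate 9 or 10). Pathway calls ranged from 0 to 1 in myoblasts at 3 h, 1 to 2 at 6 h, and in differentiated cells 0 to 1 at 1 h (1 without stretched replicate 4 or 9), 1 to 2 at 3 h and 0 to 1 at 6 h.

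Equal replicate numbers were not taken as pairs, since only 10 of 23 correlations of deviations were over 0.1 (range -0.0896 to 0.440). Of the libraries, 11 matched their own number best. Libraries of different numbers also share an experiment, so this count cannot tell pairing by number from a shared experiment. The replicate block changed no other count by over 1.5 times. At 106 to 244 counts, Pdk2 in myoblasts was the least precise of the 7 genes.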
